A study of Oryza sativa with 2 samples.

Results

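The starts of rice chromosomes 11 and 12 were described in the RNA of young leaves, as 600 of the 57343 gene identifiers counted. Identifiers that begin with MH11g and MH12g were sorted within each chromosome and the first 300 of each were taken, without use of any measured level. The plants were Minghui 63 seedlings, 2 weeks old and collected at 8 in the morning, grown at 32 °C by day (14 h) and at 28 °C by night (10 h). A soak of 72 h at 37 °C is also given, the same for both libraries. The labels name no transgene and no other treatment. There were 2 libraries of total RNA with ribosomal RNA removed, both from a single group, so no condition could be compared, and the labels do not say whether they came from separate plants. The sample label gives seedling and the extraction protocol gives leaves. No leaf marker could be read, because the files give no gene names and 0 of the 57343 identifiers matched the reference gene table.

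Segmental duplications copy a stretch of chromosome with its genes in order, and the copies then diverge, lose members or are made alike again by gene conversion. In rice, the first stretches of chromosomes 11 and 12 are known as such a pair, whose gene copies are unusually alike in sequence for their origin. Reads that align equally well to both copies cannot be placed on either. Only uniquely aligned reads were counted here, so a low or 0 count at these starts can reflect silence or reads that were left uncounted.

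The sequences of these genes were not used here, so the sides could be matched only by the order of their identifiers and by the deposited length of each gene model. Order of identifiers was taken as order along the chromosome. Identifier numbers ran from MH11g0010000 to MH11g0039900 on chromosome 11, and from MH12g0010000 to MH12g0049800 on chromosome 12. On chromosome 12 the numbering jumped once, after rank 136, from MH12g0023500 to MH12g0033500. Ranks count the listed identifiers only, so equal ranks after the jump need not be equal places on the chromosomes. Just inside the limit, MH11g0039900 had FPKM of 4.78 and 2.85 in libraries 1 and 2, and MH12g0049800 had 0 and 0.0193. FPKM is fragments per kilobase of model, scaled to the total of gene counts. Just outside it, MH11g0040000 had 6.0 and 4.67, and MH12g0049900 had 0.474 and 0.456.

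Library 1 held 18096722 gene counts and library 2 held 18799901, of which the MH identifiers took 47.4% and 47.0%. The chromosome 11 side had 40642 and 41552 counts, and the chromosome 12 side had 37269 and 37933. These were 0.474% and 0.471% of the MH counts for chromosome 11, and 0.434% and 0.430% for chromosome 12. A count of 0 allowed up to 0.166 CPM (counts scaled to the library's gene total) in library 1 and 0.160 in library 2, for uniquely aligned reads and counting error only. Entries with more than a single alignment were 27.7% and 25.8% of all entries in the count files, and the files do not say which genes they belong to.

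At the starts of chromosomes 11 and 12, 26.0% and 31.0% of the genes were expressed, with a difference between the sides that its interval does not separate from 0, and fewer identifiers of chromosome 12 than of chromosome 11 were without a count. An identifier was called expressed where its FPKM reached 1 in each library. This held for 78 of 300 on chromosome 11, which is 26.0% (95% Wilson interval 21.4% to 31.2%), and for 93 of 300 on chromosome 12, which is 31.0% (26.0% to 36.4%). Over all 57141 MH identifiers with a chromosome number the share was 23.3%. The difference between the sides was 5.0 points, with a Newcombe interval from -2.22 to 12.2, which spans 0.

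No count in either library was found for 80 identifiers on chromosome 11, or 26.7% (22.0% to 31.9%). On chromosome 12 this was so for 55, or 18.3% (14.4% to 23.1%). The share over all MH identifiers was 36.2%. Chromosome 12 minus chromosome 11 was -8.33 points, with an interval from -14.9 to -1.65. These intervals treat identifiers as independent, which neighbours on a chromosome are not, so they are likely too narrow, and no p was computed.

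Both starts had larger expressed shares than the rest of their chromosomes. Beyond rank 300, 13.9% of 4274 identifiers on chromosome 11 were expressed (12.8% to 14.9%) and 18.4% of 3236 on chromosome 12 (17.1% to 19.8%), both below the intervals at the starts. The shares without a count there were 43.4% and 39.8%. Lengths that are multiples of 3 made up 72% and 69% at the starts of chromosomes 11 and 12, against 79.8% and 76.7% beyond. Over all MH identifiers 16.3% of models with such lengths were expressed, against 43.3% of the others. This comparison was not adjusted for length. Against the first 300 identifiers of the other 10 chromosomes the starts were not extreme. The other 10 ran from 8.67% to 49.0% expressed, with a median of 34.0%, and chromosomes 12 and 11 ranked 7 and 8 of the 12. For identifiers without a count the other 10 ran from 16.7% to 59.3%, with chromosome 11 at rank 7 and chromosome 12 at rank 10.

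**Figure D1:**
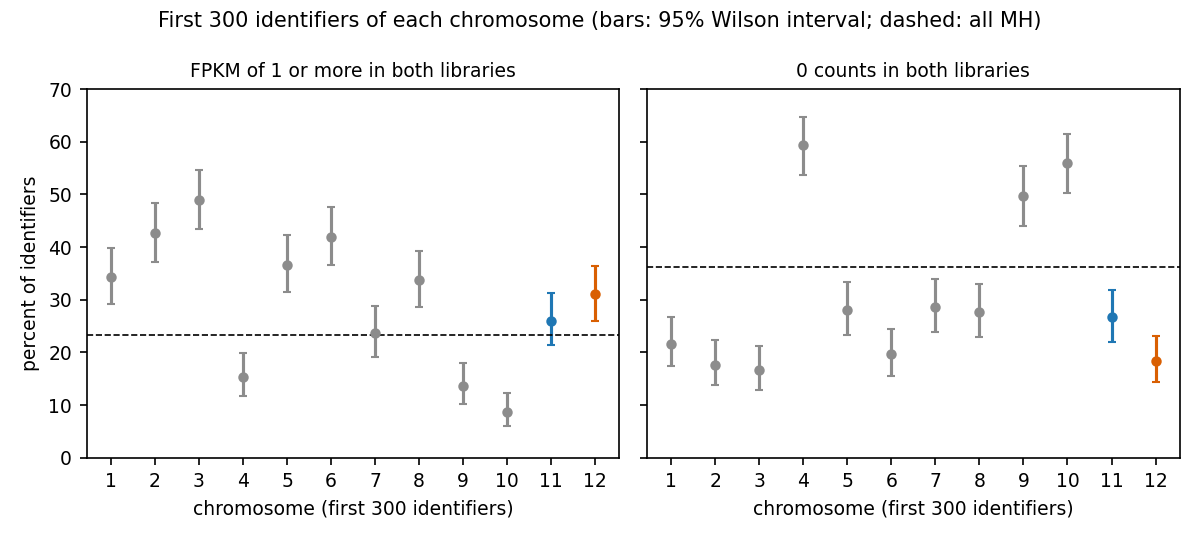
Percent of the first 300 identifiers of each chromosome that were expressed (left) or had 0 counts in both libraries (right), with 95% Wilson intervals; the dashed lines mark all MH identifiers (23.3% and 36.2%). Chromosomes 11 (blue) and 12 (orange) sit within the range of the other 10 starts in both panels.

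Models under 1000 bases were less often expressed than longer ones on both sides. Under 500 bases, 10 of 68 models were expressed on chromosome 11 and 13 of 61 on chromosome 12, and from 500 to 1000 bases 7 of 52 and 9 of 44. At 3000 bases or more, 21 of 50 and 24 of 43 were expressed. The median model was 1309 bases long on chromosome 11 and 1592 on chromosome 12, against 1329 over all MH identifiers. The side difference in identifiers without a count was largest between 500 and 1000 bases, with 21 of 52 on chromosome 11 and 5 of 44 on chromosome 12. Given their lengths and whether these were multiples of 3, the rates of all MH identifiers would give 24.3% expressed on chromosome 11 and 25.1% on chromosome 12. The observed shares lay 1.74 and 5.85 points above these. For identifiers without a count the observed shares lay 9.13 and 15.9 points below the values so obtained, 35.8% and 34.3%.

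Expressed members were unevenly spread along both starts, and both had their least expressed block at the same ranks. In successive blocks of 50 identifiers, chromosome 11 held 17, 13, 12, 18, 6 and 12 expressed members, and chromosome 12 held 23, 10, 26, 14, 6 and 14. Ranks 201 to 250 were lowest on both, with 6 of 50 each, and carried 1.94% and 1.89% of the side's counts on chromosome 11 and 3.56% and 3.52% on chromosome 12. That block was also lowest, or level with another, on 3 of the other 10 starts, so its place is not particular to chromosomes 11 and 12. The sides differed in how this block was low. On chromosome 11, 26 of its 50 identifiers had no count in either library, and on chromosome 12 this was so for 9.

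The excess of identifiers without a count on chromosome 11 came mainly from ranks 1 to 50, with 15 against 6, and from ranks 201 to 250. Without ranks 201 to 250 on either side, 54 of 250 had no count on chromosome 11 and 46 of 250 on chromosome 12, or 21.6% and 18.4%. The longest unbroken run without a count was 7 identifiers on chromosome 11, MH11g0017300 to MH11g0017900, with models of 387 to 2550 bases. On chromosome 12 it was 4 identifiers, found at 2 places, the first of them MH12g0016300 to MH12g0016600. The longest expressed run was 3 identifiers on chromosome 11, found at 8 places, and 5 on chromosome 12, MH12g0013400 to MH12g0013800, with FPKM from 4.55 to 26.7. Identifiers at equal rank were expressed together in 27 of 300 cases, which is 34.6% of the expressed members of chromosome 11 and 29.0% of those of chromosome 12. These shares were near the 31.0% of all ranks of chromosome 12 and the 26.0% of all ranks of chromosome 11 that were expressed.

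**Figure D2:**
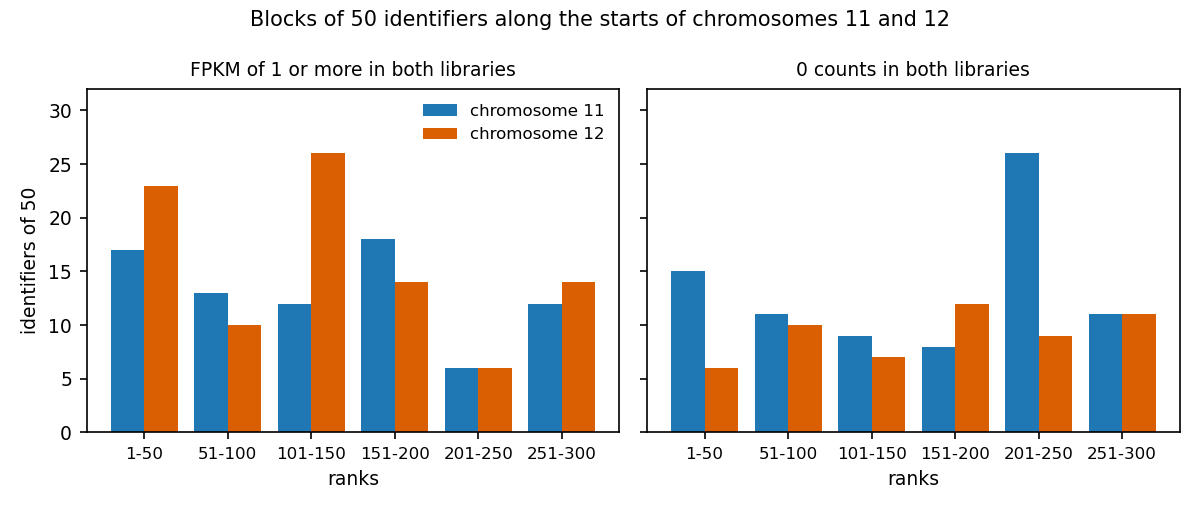
Number of identifiers per block of 50 ranks that were expressed (left) or had 0 counts in both libraries (right), for chromosome 11 (blue) and chromosome 12 (orange). Ranks 201 to 250 had 6 expressed identifiers on both sides, and 26 without a count on chromosome 11 against 9 on chromosome 12.

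Counts were concentrated in few genes, more so on chromosome 11. The 10 identifiers with most counts held 64.7% and 65.1% of that side's counts in libraries 1 and 2, against 49.1% and 49.9% on chromosome 12. MH11g0015100 alone, a model of 3993 bases at rank 52, had 10493 and 10788 counts, which is 25.8% and 26.0% of its side. Its FPKM was 145 and 144. Among expressed members the median FPKM was 4.03 and 3.49 on chromosome 11, and 4.55 and 4.43 on chromosome 12, against 4.95 and 4.85 over all MH identifiers. An FPKM of at least 10 in each library was found for 22 members of chromosome 11 and 20 of chromosome 12. These were 7.33% and 6.67%, near the 6.20% over all MH identifiers. An FPKM of at least 100 was found for 3 and 2, or 1.0% and 0.667%, against 0.534% over all MH identifiers.

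The highest level per length was found at the same rank on both sides. On chromosome 11 the highest was MH11g0024600, with FPKM of 297 and 301.4. It was followed by MH11g0015100, already given, by MH11g0025000 with 135 and 134, and by MH11g0026600 with 98.1 and 99.6. On chromosome 12 the highest was MH12g0034500, with 283 and 281. It was followed by MH12g0034200 with 275 and 279, by MH12g0012900 with 87.9 and 87.7, and by MH12g0038500 with 80.7 and 81.0. The highest identifiers of both sides had rank 147 from the start, and both models were 351 bases long. On chromosome 12 this rank lies after the jump in numbering, so the equal rank depends on the identifiers that were listed.

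**Figure D3:**
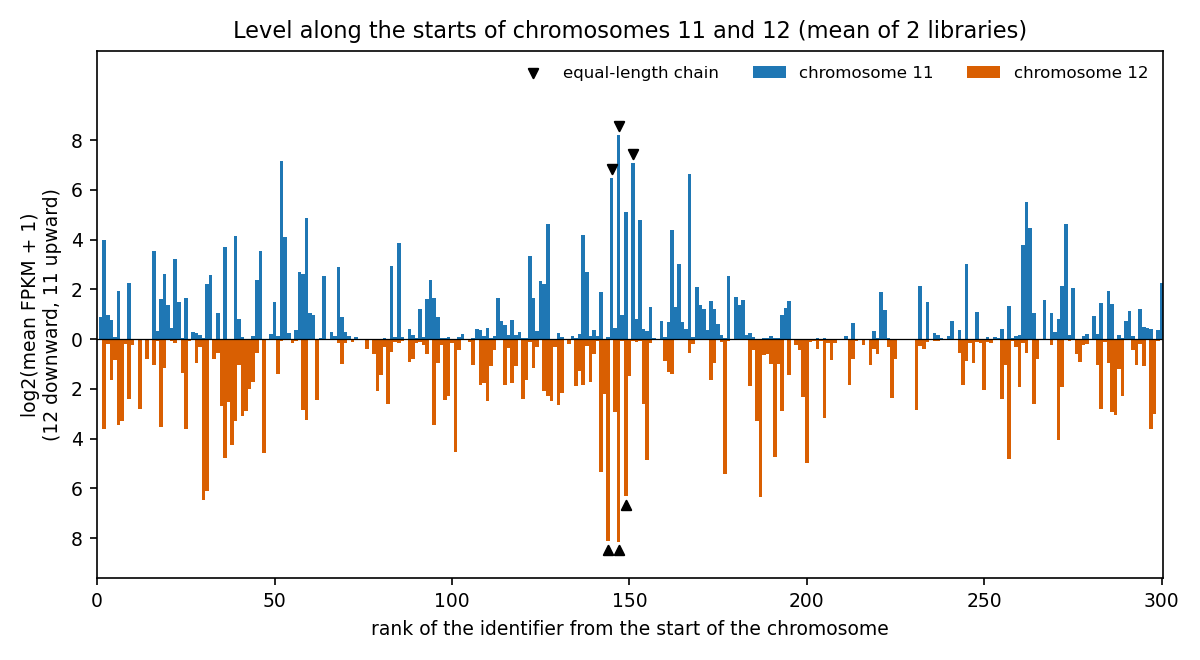
Level of each identifier, as log2 of the mean FPKM of both libraries plus 1, by its rank from the start, with chromosome 11 drawn upward and chromosome 12 downward on one scale. The 6 triangles mark the equal-length chain at ranks 145 to 151 on chromosome 11 and 144 to 149 on chromosome 12, which holds the highest bar of each side.

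The matching of the sides by length and order found 3 pairs, all in that place. Models of equal length in the same order were joined into a chain that scored 1 for each pair and lost 0.1 for each identifier skipped on either side. The best chain joined MH11g0024400 with MH12g0034200 at 357 bases, MH11g0024600 with MH12g0034500 at 351 bases, and MH11g0025000 with MH12g0034700 at 357 bases. Partners lay at most 2 ranks apart, at ranks 145, 147 and 151 on chromosome 11 and at ranks 144, 147 and 149 on chromosome 12. No pairs of the chain were adjacent on both sides. The 4 identifiers between them on chromosome 11 and the 3 on chromosome 12 had 1 expressed member each.

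A chain of 3 pairs was not particular to chromosomes 11 and 12, though few other pairs of starts had one. The same search over all 66 pairs of chromosome starts gave a score as high as the 2.3 of chromosomes 11 and 12 in 3.03% of them. These were chromosomes 11 and 12 themselves and the pair of chromosomes 4 and 11, which scored 2.7. The other 65 pairs had a median score of 1.4, and 6 of them also had a chain of 3 pairs, the most that any had. With lengths allowed to differ by up to 3 bases, 28 of the other 65 scored as high as chromosomes 11 and 12 or higher. Among 35 other combinations of blocks of 300 from the first 6 blocks of chromosomes 11 and 12, the highest score was 2.0.

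The chain joined highly expressed members at nearly equal ranks. All 6 of its members were expressed, and all 6 had FPKM values of 75 or more in each library. In the chains of the other 65 pairs of starts, 39 of 236 memberships were expressed, or 16.5%, and 3 reached that level. Each start enters several chains, so these memberships are not independent. No other chain of 3 had all its members expressed, and none of the other 6 had its partners within 15 ranks of each other. Among the shorter chains of 2 pairs, 1 had all its members expressed, between chromosomes 2 and 3. In 4 others the partners lay within 15 ranks, and between chromosomes 7 and 8 they lay at most 2 ranks apart. This comparison was chosen after the levels were seen, and no test was made.

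**Figure D4:**
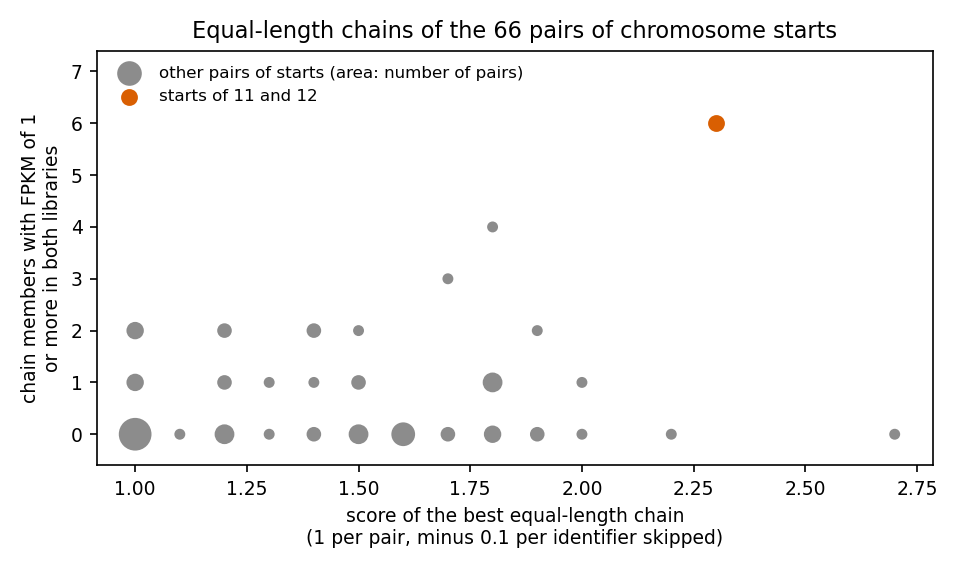
Score of the best equal-length chain (horizontal) and number of its members that were expressed (vertical) for each of the 66 pairs of chromosome starts; larger grey points stand for more pairs. Chromosomes 11 and 12 (orange) had a score of 2.3 with 6 expressed members, while the single higher score, 2.7, had 0.

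Models of these lengths were seldom expressed in the whole table, as short models were in general. Of 83 MH identifiers with a model of 351 bases, 8 were expressed and 49 had no count. Of 139 with 357 bases, 18 were expressed and 74 had no count. Over all MH models under 500 bases, 9.56% were expressed and 61.6% had no count. The 2 identifiers of 351 bases and the 4 of 357 bases that reached an FPKM of 75 in both libraries were the 6 members of the chain. The order 357, 351, 357 within 7 successive identifiers was found at 2 places in the whole table, and these were the chain on chromosome 11 and the chain on chromosome 12. The order and the stretch of 7 were taken from the chain, so its 2 places were bound to be found. The search adds only that no other place had this order. The FPKM of 75 was set after seeing the levels, and the files do not say what these genes encode.

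The middle pair was almost evenly split between the chromosomes. MH11g0024600 had 1885 and 1989 counts in libraries 1 and 2, and MH12g0034500 had 1796 and 1856. The share on chromosome 11 was 51.2% (95% Clopper-Pearson interval 49.6% to 52.8%) in library 1 and 51.7% (50.1% to 53.3%) in library 2. The log2 ratio of chromosome 11 over 12 was 0.08 ± 0.02 (SD, n = 2). The models are equally long, so their counts are given without division by length, but the length to which reads align uniquely may differ between them and was not tested.

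The outer pairs leaned in opposite directions. MH11g0024400 had 551 and 621 counts and its partner in order, MH12g0034200, had 1775 and 1870. The share on chromosome 11 was 23.7% (22.0% to 25.5%) and 24.9% (23.2% to 26.7%), so the model on chromosome 12 was 3.22-fold and 3.01-fold higher, with a log2 ratio of -1.64 ± 0.07 (SD, n = 2). MH11g0025000 had 870 and 899 counts and MH12g0034700 had 488 and 556. Here the share on chromosome 11 was 64.1% (61.4% to 66.6%) and 61.8% (59.2% to 64.3%), and the model on chromosome 11 was 1.78-fold and 1.62-fold higher, with a log2 ratio of 0.76 ± 0.10 (SD, n = 2). In both pairs the difference between chromosomes was many times the spread between libraries.

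Equal length does not settle which of the models of 357 bases are partners. Crossed, MH11g0024400 and MH12g0034700 would differ little, with counts of 551 against 488 and of 621 against 556, or 1.13-fold and 1.12-fold. MH11g0025000 and MH12g0034200 would then differ 2.04-fold and 2.08-fold, with chromosome 12 higher. Under either matching 1 of the 3 pairs differed 2-fold or more in both libraries, with the higher count on chromosome 12. In the chains of the other 65 pairs of starts, 34 pairs had 10 or more counts in sum in each library. Of these, 85.3% differed that much. Only 16.5% of the memberships of those chains were expressed, against all members of this chain, so the sets were not alike in level.

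**Figure D5:**
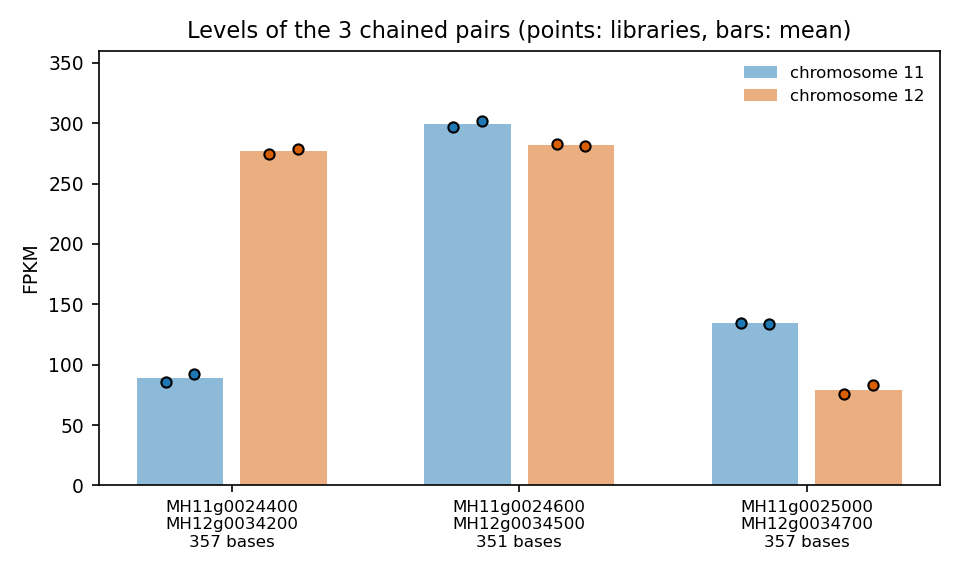
FPKM of the 3 chained pairs, with chromosome 11 in blue and chromosome 12 in orange; bars are the mean and points the 2 libraries. The middle pair sits between 281 and 301.4 on both sides, the left pair is higher on chromosome 12 and the right pair on chromosome 11.

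Summed over the chain, chromosome 12 held more of the counts in both libraries. The 3 members on chromosome 11 had 3306 and 3509 counts, and those on chromosome 12 had 4059 and 4282. The sum on chromosome 12 was 1.23-fold and 1.22-fold higher, and 44.9% (43.7% to 46.0%) and 45.0% (43.9% to 46.2%) of the counts fell on chromosome 11. This sum does not depend on which models are partners. The chain made up 8.13% and 8.44% of the counts of the chromosome 11 side, and 10.9% and 11.3% of those of the chromosome 12 side. Whether these models are copies of each other cannot be read from length and order alone. Any reads that align to more than a single one of them would have been left uncounted, and their part in the levels was not tested.

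A looser matching joined more pairs, as it did elsewhere. With no cost for skipped identifiers the longest series of equal lengths in order held 13 pairs, of 150 to 1107 bases, and other series of that size may exist. The other 65 pairs of starts had 8 to 15, with a median of 11, and 15 of them had 13 or more. Both sides were expressed in 4 of the 13 pairs, a single side in 3 and neither in 6. The 3 chain pairs were among those 4. Over all MH identifiers 23.3% were expressed. Most of the 13 pairs were under 500 bases, and of MH models that short 9.56% were expressed. Across the 13 pairs, log2(FPKM + 1) of both sides had a Pearson r of 0.83. With the 3 chain pairs left out it was 0.12 over 10 pairs. With each partner replaced by the identifier after it, r was -0.26 over 13 pairs. These are descriptions across genes of the same libraries.

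Some of those pairs were far from even. MH11g0011800 and MH12g0010200, of 1104 bases, had 104 and 107 counts against 3 and 3. MH11g0015300 and MH12g0013000, of 150 bases, had 1 and 0 counts against 214 and 157. MH11g0026800 and MH12g0039100, of 369 bases, had 22 and 22 against 45 and 41. These 3 are printed because they had the most counts outside the chain, a choice made after their values were seen. No count was found on either side in either library for 3 pairs. They were MH11g0023200 with MH12g0022400 at 405 bases, MH11g0034100 with MH12g0046800 at 342 bases, and MH11g0034600 with MH12g0048800 at 204 bases.

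Without regard to order, 59 members of chromosome 11 had a length that also occurred on chromosome 12, and 56 members of chromosome 12 had one that occurred on chromosome 11. These gave 73 combinations, where the other 65 pairs of starts gave 33 to 81 with a median of 51, and 6 of them 73 or more. Within 15 ranks of each other lay 10 combinations, and the other pairs of starts had 0 to 10, with a median of 5. The combinations among the chain's own models are part of both counts, so neither count is separate from the chain. Members whose length occurred on both sides were short, with a median of 384 bases on chromosome 11 and 447 on chromosome 12, against 1495 and 1717 for the rest. They more often had no count, at 37.3% against 24.1% on chromosome 11 and 28.6% against 16.0% on chromosome 12. Short models also more often had no count in general, as given above, and the part of reads with several alignments was not tested.

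No member was called different between the libraries in the main test, which by itself does not show that the libraries were alike. Of the 600 members, 283 had 10 or more counts in sum and entered the exact binomial test of library 1 against library 2, and 0 had an adjusted p under 0.05. Over all identifiers 0.678% of those tested did, a rate so low that 0 of 283 does not set the members apart. With DESeq2 size factors 0 members were called as well, where 189 were called over all identifiers. These factors were 1 and 1, so this alternative left the counts unscaled. Without adjustment, 18 of the 283 had a p under 0.05, or 6.36%, against 8.31% over all identifiers. The lowest adjusted p was that of MH12g0014100, with 338 and 257 counts, FPKM of 7.52 and 5.50, a log2 ratio of library 1 over library 2 of 0.42 and an adjusted p of 0.0584 in the exact binomial test. That value moved between 0.0301 and 0.108 over 5 alternatives and was under 0.05 in 3 of them. Among the 142 expressed members with 100 or more counts in sum, the relative SD of the FPKM between libraries had a median of 5.69% and a highest value of 34.0%.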

How the data were processed

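The members and the comparisons were chosen with earlier results of these data known. Counts per gene are raw whole numbers as deposited, made with HISAT2, HTSeq and Trimmomatic according to the submitters' processing notes. Tool versions, strand setting, annotation, build and the kind of length are not given in the sources used here. Deposited FPKM values are the authors' own, scaled by the total of all gene counts, and were recomputed here to within 5e-06. Summary lines, 43.0% and 39.1% of all entries, stayed out of library sizes and tests. Ratios of paired models used log2 with a pseudocount of 0.5. The library comparison across all genes was a two-sided exact binomial test with TMM-scaled totals (edgeR 4.0.16, factors 1.009 and 0.991), Benjamini-Hochberg adjusted over 19770 identifiers, since a single group leaves no contrast for a count model. DESeq2 1.42.0 gave size factors of 1 and 1 for an alternative, which left the counts unscaled. The test and the chain search were tested on simulated data. Other versions were R 4.3.3, Python 3.11.15, numpy 2.4.6, pandas 2.3.3, scipy 1.17.1 and matplotlib 3.10.9. Identifiers printed were the 4 highest per side, the chained pairs, pairs without counts, those at the limit and those that differed between libraries, by a written rule that allowed for more pairs than were found. A correlation over the 3 pairs was not computed. Any identifier printed outside that rule, such as run ends, was chosen after its values were seen. Shares carry 95% intervals for counting error only. Alternatives covered floors, scaling, ranks taken, chain costs, pseudocounts and leaving out either library.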

Additional observations from a re-analysis of the deposited data

Results flagged for a closer look

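Outside the gene comparisons, entries with more than a single alignment were 27.7% of gene counts and summary lines in library 1 and 25.8% in library 2. They are given here because no comparison used them. Their share at the starts of chromosomes 11 and 12 was not analysed here, and a read with several alignments may have been entered more than once.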

How the results depend on the processing

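No paired analysis was possible because both libraries belong to 1 group. Of 58 alternatives, 36 kept the value within its error or count range and 22 moved it. The 36 included lengths that occur once per side, where the number of pairs stayed in range but the pairs were others. They also included the median ratio with crossed partners, which the middle pair set under either matching. The crossed partners and the shares without ranks 201 to 250 were chosen after seeing the data. The expressed share on chromosomes 11 and 12 was 33.7% and 40.0% at an FPKM of 0.5, 10.3% and 13% at 5, 37.3% and 43.7% at 10 counts, 34.3% and 41.3% when FPKM was scaled by MH counts alone, and 36.5% on chromosome 12 for the first 200. With a single library it was 27.3% to 27.7% on chromosome 11 and 33.0% to 34.0% on chromosome 12. The share without a count was 34.3% to 35.7% on chromosome 11 and 27.3% on chromosome 12 with a single library, 44.7% and 37.7% for under 3 counts in sum, 21.5% on chromosome 11 for the first 200 and 21.6% there without ranks 201 to 250. Chromosome 12 had the higher expressed share and the lower share without a count under each of these alternatives. The chain held the same 3 pairs under 6 of 8 alternatives. Without a cost it held 13, these 3 among them. With lengths that occur once per side it held 2 others, of which 0 were expressed on both sides, since both lengths of the chain recur on a side. One member, MH12g0014100, was called different between libraries under total counts, MH totals and 100 or more counts (1 each). Over all identifiers 125, 124 and 149 were called under these settings. The depth limits the shares without a count, since 50 members of chromosome 11 and 54 of chromosome 12 had counts in a single library only. These were 16.7% and 18%, near the 17.9% over all MH identifiers, so this limit is not particular to these starts.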
